A study of Mus musculus with 6 samples.

Results

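Small nucleolar RNAs (snoRNAs) were described in skin of mice without Tnip1, the gene of a ubiquitin-binding protein that restrains inflammatory signalling through A20. The members were chosen by their counts: gene symbols that begin with Snora or Snord, in either case, with at least 10 counts summed over the 6 libraries. Of 242 such symbols in the files, 151 met this minimum, among 34590 gene symbols in all: 73 box H/ACA symbols (Snora) and 78 box C/D symbols (Snord). The summed count chose the members without regard to genotype. It is therefore a description and supports nothing below.

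Skin biopsies of C57BL/6 mice were compared, 3 wild type (Tnip1+/+) and 3 knockout (Tnip1-/-), and every mouse had received imiquimod, which activates Toll-like receptor 7, for 2 days. Both groups carried this treatment, and skin without imiquimod was not analysed here. Titles and the treatment field give imiquimod for every mouse, whereas the library identifiers in the labels carry the stem IMQ in the wild type group and the stem NORM in the knockout group. Genotype therefore cannot be told apart from whatever those stems mark. The deleted part of the gene, the age of the mice, and whether the deletion is confined to a cell type are not given in the sources used here. Libraries were made from total RNA after removal of ribosomal RNA, with a stranded kit, and read in pairs of 100 bases.

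A snoRNA is a short RNA of the nucleolus that pairs with ribosomal RNA and brings a modifying enzyme to a chosen base. Box C/D snoRNAs carry a C box near the 5′ end and a D box near the 3′ end and guide ribose methylation by fibrillarin. Box H/ACA snoRNAs fold into hairpins that end in an ACA box and guide the conversion of uridine to pseudouridine by dyskerin. A few members of each class act in the cutting of the ribosomal RNA precursor instead. In mammals most snoRNAs lie in introns of host genes, many of which encode ribosomal proteins or proteins of translation. The guest is released when the host's introns are processed.

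The sequences of members that carry the results are given here as the transcripts of GENCODE release M21 (GRCm38), matched by symbol. Each is written 5′ to 3′ in DNA letters. The counts were made on mm9 and hold no coordinates, so the positions below are those of GRCm38 only. In the box H/ACA members the capitals mark the ACA that stands 3 bases before the 3′ end.
Snora73b: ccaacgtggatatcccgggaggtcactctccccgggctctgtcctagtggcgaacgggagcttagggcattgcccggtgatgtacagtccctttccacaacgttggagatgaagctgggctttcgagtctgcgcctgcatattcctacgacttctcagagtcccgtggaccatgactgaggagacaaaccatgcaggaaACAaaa
Snora78: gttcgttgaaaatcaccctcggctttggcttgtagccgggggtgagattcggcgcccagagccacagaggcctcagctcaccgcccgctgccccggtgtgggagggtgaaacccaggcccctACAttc
Snora24: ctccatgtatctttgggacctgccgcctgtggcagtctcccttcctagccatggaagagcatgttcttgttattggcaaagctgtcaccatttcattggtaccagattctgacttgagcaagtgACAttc
Snora23: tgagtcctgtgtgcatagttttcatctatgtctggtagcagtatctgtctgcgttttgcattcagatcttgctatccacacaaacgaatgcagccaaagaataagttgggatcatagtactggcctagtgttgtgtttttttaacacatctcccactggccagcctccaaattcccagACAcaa
Snora73b lies in the host Snhg3 (chr4:132352322-132352526, minus strand) and is shown as the most abundant member. Snora78 lies in Snhg9 (chr17:24719676-24719803, minus strand), and Snora24 in Snhg8 (chr3:123507937-123508066, minus strand). Both were higher in knockout skin. Snora23 lies in the importin gene Ipo7 (chr7:110046364-110046547, plus strand) and is shown because its direction depended on 1 library.

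In the box C/D members the capitals mark TGATGA, the usual core of a C box, where it falls within the first 20 bases. They also mark the last CTGA, the D box, within the last 20 bases.
Snord17: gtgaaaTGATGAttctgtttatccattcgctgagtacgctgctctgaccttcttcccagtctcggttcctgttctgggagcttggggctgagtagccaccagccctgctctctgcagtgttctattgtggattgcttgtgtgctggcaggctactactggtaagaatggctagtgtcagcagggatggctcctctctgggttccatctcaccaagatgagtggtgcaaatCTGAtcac
Snord118: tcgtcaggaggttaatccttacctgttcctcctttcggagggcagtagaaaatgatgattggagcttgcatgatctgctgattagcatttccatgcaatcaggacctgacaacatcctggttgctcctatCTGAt
Snord15a: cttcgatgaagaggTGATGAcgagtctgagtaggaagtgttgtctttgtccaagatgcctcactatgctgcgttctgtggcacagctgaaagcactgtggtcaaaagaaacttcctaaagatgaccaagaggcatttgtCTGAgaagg
Snord49a: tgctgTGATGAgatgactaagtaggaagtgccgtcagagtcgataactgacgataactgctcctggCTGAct
Snord83b: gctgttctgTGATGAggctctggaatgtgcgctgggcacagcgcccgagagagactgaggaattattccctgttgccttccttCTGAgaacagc
Snord16a: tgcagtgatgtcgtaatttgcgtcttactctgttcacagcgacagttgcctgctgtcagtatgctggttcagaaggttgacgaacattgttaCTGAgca
The long members Snord17 (in Snx5, chr2:144265979-144266216, minus strand), Snord118 (no host, chr11:69073427-69073561, plus strand) and Snord15a (in Rps3, chr7:99482785-99482932, minus strand) are shown beside 3 short ones. The short ones are Snord49a (in 2410006H16Rik, chr11:62603450-62603521, plus strand), Snord83b (in Rpl3, chr15:80078498-80078591, minus strand) and Snord16a (in Rpl4, chr9:64175423-64175521, plus strand). Both sets are shown because they varied differently among the knockout libraries.

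The class names were checked against sequence. Of the members, 71 symbols in mouse case (such as Snora78) matched an annotated snoRNA, 24 of box H/ACA and 47 of box C/D. The 80 symbols in upper case (such as SNORA74) did not match and have no length or host here. Some families are listed under both spellings, for example SNORA33 and Snora33, so reads of near-identical copies may be split between symbols. An ACA followed by exactly 3 bases was found on the given strand in 21 of the 24 matched Snora sequences and in 0 of the 47 Snord sequences. CTGA within the last 20 bases was found in 46 of 47 Snord and 2 of 24 Snora sequences. TGATGA within the first 20 bases was found in 28 of 47 and in 0 of 24. Over all annotated snoRNA transcripts with these symbol stems, the ACA motif was in 83.3% of 42 Snora transcripts, CTGA in 98.0% of 98 Snord transcripts and TGATGA in 71.4% of them.

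The classes differ in size. Matched Snora members were 127 to 205 bases long (median 132.5) and matched Snord members 64 to 238 bases (median 80). Of the Snord members, 40 were shorter than 100 bases, the length of 1 read, and none of the Snora members was.

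Depth was 24701074 to 31005554 gene counts per wild type library and 19529970 to 25864730 per knockout library. A count of 3 equals 0.0968 to 0.154 CPM (counts scaled to the library total, and elsewhere to the TMM-adjusted total). Tnip1 had 938, 739 and 703 counts in the wild type libraries and 47, 37 and 35 in the knockout libraries (log2 fold change -3.87, SE 0.16, adjusted p = 5.87e-05, edgeR). Of 8 skin markers (keratinocyte and dermal collagen genes), none was at 0, with summed levels of 8820 to 18166 CPM in wild type mice and 21892 to 25819 CPM in knockout mice. In log2, Krt14 rose by 2.54, Krt1 by 1.34 and Krt5 by 1.19, Krt10 fell by 0.95, and the other 4 did not pass. Krt14 stood at 1222 to 2765 CPM in wild type and 10059 to 13950 CPM in knockout mice. Without knockout replicate 1, 4 skin markers were called higher and 0 lower. Other marker lists moved with genotype too, where 22.3% of all tested genes rose and 22.7% fell. The 10 skeletal muscle markers summed to 9774 to 17531 CPM in wild type and 2970 to 4975 CPM in knockout skin, and 10 of 10 fell. The 8 adipocyte markers summed to 1989 to 3862 and 73.2 to 1288 CPM, and 2 fell. The 9 leukocyte markers summed to 705 to 1059 and 7889 to 12698 CPM (3 rose and 2 fell). Nearly all of the knockout sum was S100a8 and S100a9, genes of neutrophils that keratinocytes also express, at 7.37 to 74.1 and 10.1 to 72.3 CPM in wild type, then 3120 to 5139 and 4166 to 6782 CPM in the knockout. Of the others, Csf1r rose, Cd3e and Cd74 fell, Ptprc, Itgam and Cd68 did not pass, and Ly6g, with 0 counts in wild type and 13 in knockout libraries, was not tested. The 10 markers of cycling cells summed to 284 to 824 and 877 to 1412 CPM (8 rose, and 5 without knockout replicate 1). No marker in these lists was at 0 over the libraries. Their part in the snoRNA results was not tested, and in whole skin fewer cells of a type and less RNA per cell cannot be told apart.

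Knockout replicate 1 stood apart in snoRNA content, so the counts of called members and the values of the main members are given with and without it. The members took 0.114%, 0.0911% and 0.0974% of gene counts in wild type replicates 1, 2 and 3. They took 0.318% in knockout replicate 1, against 0.107% and 0.121% in knockout replicates 2 and 3. Knockout replicate 1 was far above the wild type range, and replicate 3 just above it. Box H/ACA members summed to 766, 724 and 665 CPM in wild type mice and to 2825, 897 and 1031 CPM in knockout replicates 1, 2 and 3. All 3 knockout sums were above all wild type sums. Without Snora73b the other 72 summed to 544, 613 and 511 CPM in wild type mice and 1828, 598 and 644 CPM in knockout mice. Those sums overlapped, with knockout replicate 2 below wild type replicate 2. Box C/D members summed to 299, 190.0 and 225 CPM in wild type mice and to 717, 207 and 204 CPM in knockout mice. Here the groups overlapped, and replicates 2 and 3 lay inside the wild type range. Without Snord17, which held most of the box C/D counts, the other 77 summed to 41.6, 37.7 and 35.6 CPM in wild type mice and 235, 75.4 and 69.8 CPM in knockout mice, with no overlap.

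**Figure D1:**
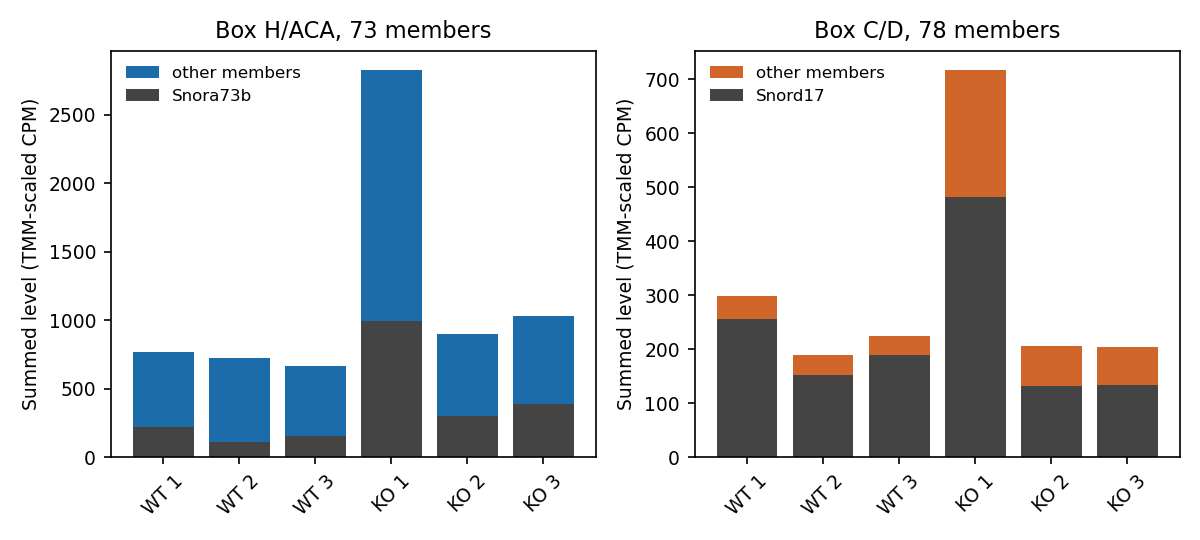
Summed level in TMM-scaled CPM of the box H/ACA members (left) and box C/D members (right) in each library, with the part held by Snora73b or Snord17 in dark grey (WT, Tnip1+/+; KO, Tnip1-/-). Knockout replicate 1 reached 2825 and 717 CPM, against at most 1031 and 299 CPM in any other library.

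The excess in knockout replicate 1 lay mostly in box H/ACA and in the longer members. Among 97 members with enough counts to test, 49 stood in knockout replicate 1 at 2 times or more the mean of knockout replicates 2 and 3, where 2.55% of all 16691 tested genes did. At 5 times or more there were 16 members, against 0.431% of tested genes, and these 16 were 22.2% of the 72 genes that far above. The median ratio was 2.85 over 58 tested box H/ACA members and 1.25 over 39 tested box C/D members. Split by length, it was 1.21 over the 18 tested members shorter than 100 bases, of which 0 reached 2 times. It was 2.91 over the 25 of 100 bases or longer, of which 17 did. The 5 tested box C/D members of that length had a median of 3.65. Across the 43 tested members with a length, the log2 ratio and length had a Pearson r of 0.59 and a Spearman rho of 0.68. These points share the same 3 libraries, so the correlation is a description. The 51 annotated host genes had ratios of 0.800 to 2.24 with a median of 1.01, so they did not share the excess as a group. Wild type libraries showed no such split: the median ratio of replicate 1 to replicates 2 and 3 was 1.17 for box H/ACA and 1.20 for box C/D.

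**Figure D2:**
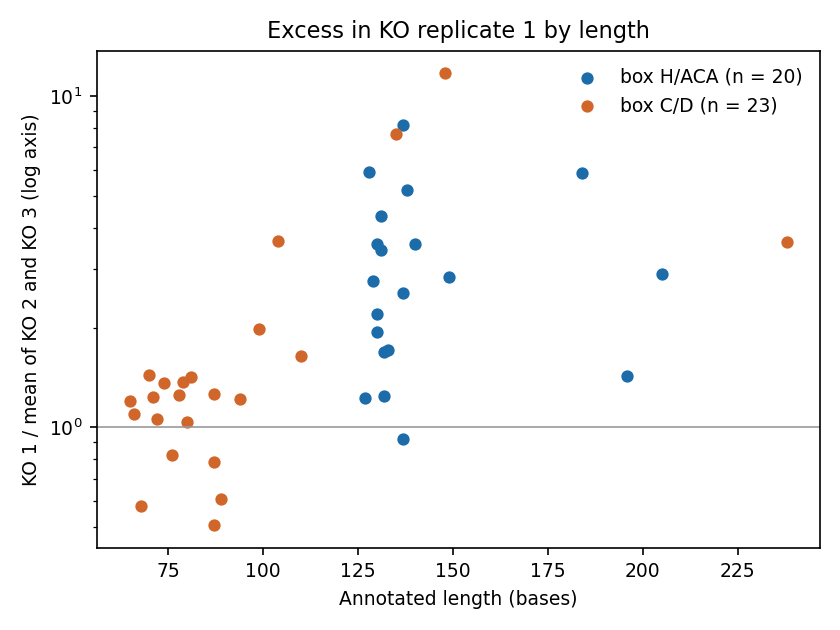
Ratio of the level in knockout replicate 1 to the mean of knockout replicates 2 and 3 (log axis) against annotated length in bases, 1 point per tested member with a length, coloured by class. All 18 members shorter than 100 bases lie below a ratio of 2, and 17 of the 25 longer ones lie at or above it.

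Summed by length, the 40 matched members shorter than 100 bases gave 13.5, 11.2 and 11.2 CPM in wild type replicates 1, 2 and 3. In knockout skin they gave 32.4, 27.3 and 24.6 CPM. All 3 knockout libraries were above all wild type libraries, and knockout replicate 1 lay close to its group. These sums rest on 302 to 752 counts per library. The 31 longer members gave 673, 421 and 509 CPM in wild type, and 2121, 672 and 749 CPM in knockout. For these the groups overlapped, with knockout replicate 2 just below wild type replicate 1.

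Gene by gene, snoRNA members were higher in knockout skin or did not pass the test. With the quasi-likelihood test of edgeR and p adjusted over all 16691 tested genes (Benjamini-Hochberg), 55 of the 97 tested members were called higher and 0 lower. Of all tested genes 45.1% were called, 22.3% higher and 22.7% lower. Some members, such as Snord58b and SNORA1, passed the low-count filter through the knockout libraries alone. How many of the called members did so was not counted. No member was lower at an unadjusted p under 0.05 either, and DESeq2 and limma voom also gave 0 lower (62 and 50 higher). Their median log2 fold change was 1.57, against -0.04 over all tested genes. The groups did not overlap for 68 tested members with knockout above and for 1 with knockout below, where 29.2% and 30.5% of all tested genes stood so. Leaving out knockout replicate 1, 44 of 100 tested members were called higher and 4 lower, with a median of 1.03, where 32.7% of all tested genes were called (16.8% higher and 15.9% lower). Of the 55, 43 were still called in that fit. In the 6 fits that leave out 1 library each, 33 of the 55 were called higher every time. The share over all genes called higher is not given here, so that number is a description and not a result about snoRNAs.

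By class, 34 of 58 tested box H/ACA members were called higher and 0 lower, with a median log2 fold change of 1.65. When knockout replicate 1 was left out these became 24 higher and 4 lower of 58, with a median of 0.93. Without wild type replicate 2 and without wild type replicate 3 the calls higher were 18 and 22, of 60 tested in each fit. Over all genes those fits called 3304 of 16964 and 3221 of 17030 higher. Among box C/D members 21 of 39 were called higher and 0 lower, with a median of 1.38. The fit without knockout replicate 1 gave 20 higher and 0 lower of 42 and a median of 1.35. Of the calls that held in all 6 fits that leave out 1 library, 17 were box H/ACA and 16 box C/D, again without a share over all genes. Whether the classes differ in their response was not tested.

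**Figure D3:**
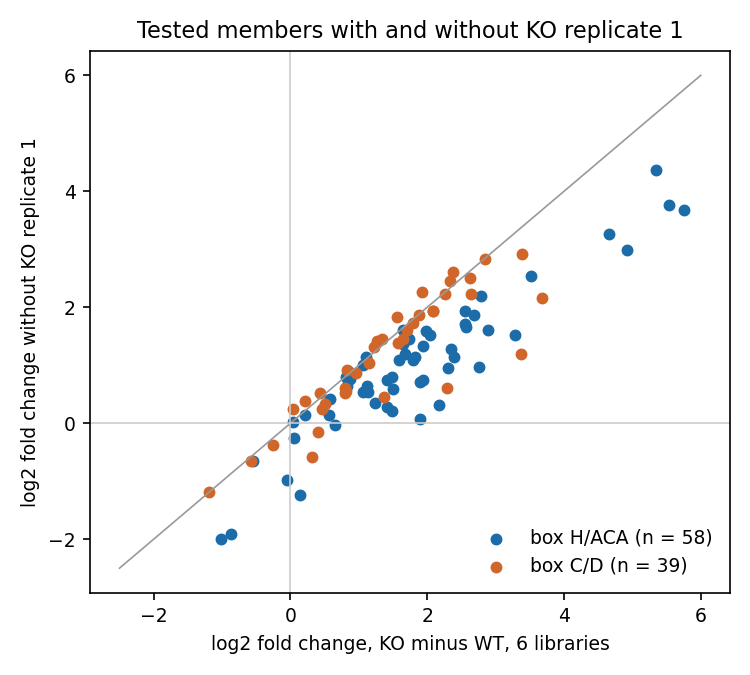
Log2 fold change of each tested member, knockout minus wild type, from 6 libraries (horizontal) and without knockout replicate 1 (vertical), with the line of equal values. For 56 of 58 box H/ACA members and 27 of 39 box C/D members the value was smaller without that library.

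The box H/ACA members with the smallest p rose in every knockout library. SNORA74, a symbol in upper case, stood at 1.20, 0.544 and 0.703 CPM in wild type replicates 1, 2 and 3. In the knockout it stood at 66.7, 13.7 and 20.3 CPM (log2 fold change 5.34, SE 0.73, adjusted p = 0.00221, edgeR). The groups were far apart, and knockout replicate 1 was the highest library. Without that library the fold change was 4.37. Snora74a, of the same family by symbol, was far more abundant and rose by only 0.83, a call lost without knockout replicate 1. SNORA25 stood at 1.59, 2.75 and 2.18 CPM in wild type mice and at 7.37, 6.95 and 6.16 CPM in knockout mice (log2 1.65, SE 0.25), so the 3 knockout libraries lay close together. SNORA12 was the steadiest abundant member, with 19.3, 17.0 and 19.4 CPM in wild type mice and 39.4, 31.6 and 31.1 CPM in knockout mice. Its rise of 0.88 (SE 0.14) was 0.76 without knockout replicate 1. Snora24 stood at 1.41, 1.43 and 1.74 CPM in wild type mice and 8.88, 4.53 and 4.60 CPM in knockout mice (log2 1.98, SE 0.33, or 1.59 without knockout replicate 1). SNORA66 rose by 2.55 and SNORA76 by 1.64, or by 1.94 and 1.36 without that library. All 6 members with the smallest p held in every fit that leaves out 1 library.

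Abundant box H/ACA members, named for their level per length, behaved less alike. Snora73b, a member that acts in processing of the small-subunit ribosomal RNA precursor, had the highest mean level of the matched members at 176 CPM per 100 bases. It stood at 222, 111 and 154 CPM in wild type mice and at 998, 299 and 387 CPM in knockout mice, with no overlap. It rose by 1.79 (SE 0.49, adjusted p = 0.0228, edgeR), or by 1.09 without knockout replicate 1. That call was lost without wild type replicate 2 or 3 (1.58 and 1.76). SNORA73, the upper-case symbol of the same family, rose by 1.14 (0.54 without knockout replicate 1). Its call was lost without any 1 of the wild type replicates and with library totals alone, upper-quartile factors or limma voom. Snora74a stood at 124, 71.1 and 95.7 CPM in wild type mice and 215, 157 and 145 CPM in knockout mice. The groups did not overlap, and its rise of 0.83 did not pass without knockout replicate 1 (0.64), without wild type replicate 2 or 3 (0.65 and 0.83) or with library totals alone (0.65).

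Snora78 moved far more. It stood at 1.44, 1.22 and 1.96 CPM in wild type skin and at 87.0, 14.4 and 15.1 CPM in the knockout (log2 4.66, SE 0.82, adjusted p = 0.00507, edgeR). Even so it rose by 3.27 (SE 0.24) without knockout replicate 1. Its host Snhg9 had 4, 6 and 0 counts in wild type replicates and 29, 14 and 10 in knockout replicates (log2 2.79), and that call was lost without knockout replicate 1 (2.30). Snora68 stood at 2.76, 2.0 and 2.59 CPM in wild type mice and 25.8, 6.44 and 5.43 CPM in knockout mice. It rose by 2.35, or by 1.28 without knockout replicate 1, and lost its call without wild type replicate 2 (2.23).

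SNORA1, SNORA38 and SNORA46, chosen after their values were seen, rose by 5.75, 5.54 and 4.93, and by 3.67, 3.77 and 2.99 without knockout replicate 1. They were called higher in each fit that leaves out 1 library. SNORA1 had 4, 1 and 3 counts in the wild type libraries and 295, 31 and 20 in the knockout libraries, so its fold rests on few counts. SNORA1 passed the low-count filter through the knockout libraries alone, so its direction is a description and supports nothing. SNORA70, with 16.9, 12.1 and 14.3 CPM in wild type mice and 80.0, 15.9 and 18.9 CPM in knockout mice, did not pass (1.41, adjusted p = 0.0952, edgeR). Its groups overlapped, and without knockout replicate 1 the value was 0.27. It passed in DESeq2 (1.43) and without knockout replicate 2 (1.80). SNORA53 stood at 65.7, 60.3 and 50.8 CPM and at 164, 53.7 and 60.7 CPM (0.65, and -0.03 without knockout replicate 1).

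A small set of box H/ACA members was low in knockout replicates 2 and 3 but not in replicate 1. Snora23 stood at 38.3, 60.5 and 39.6 CPM in wild type mice and at 113, 18.2 and 20.5 CPM in knockout replicates 1, 2 and 3. Over 6 libraries its value was 0.13 (adjusted p = 0.885, edgeR), and without knockout replicate 1 it fell by 1.25 (SE 0.24, adjusted p = 0.0149). SNORA48 stood at 81.0, 206 and 83.4 CPM and at 122, 27.9 and 33.9 CPM, and it fell by 1.99 without knockout replicate 1. The other two called lower in that fit, SNORA14 (-1.91) and SNORA79 (-0.99), were named because the count was small. For SNORA14 wild type libraries held 24.3, 31.1 and 27.9 CPM and the knockout libraries 30.8, 6.40 and 8.36 CPM. In each of the 4, replicates 2 and 3 of the knockout lay below every wild type library. Knockout replicate 1 lay above the wild type libraries for Snora23 and SNORA79 and within their range for SNORA48 and SNORA14.

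**Figure D4:**
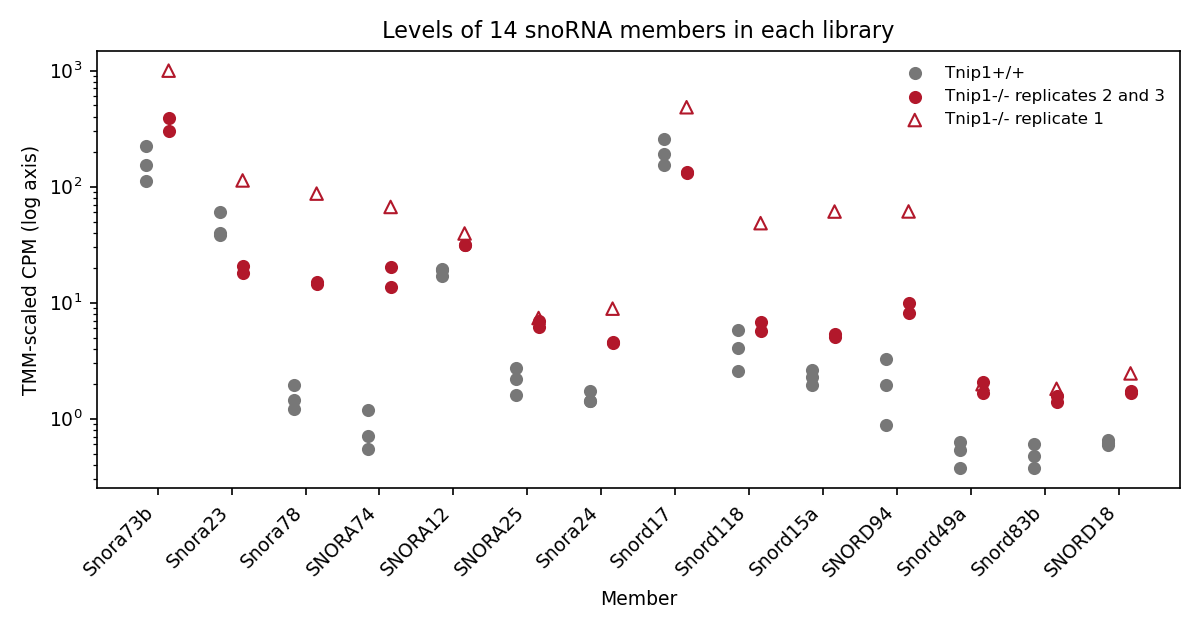
TMM-scaled CPM (log axis) of 14 members in the 3 wild type libraries (grey), knockout replicates 2 and 3 (red) and knockout replicate 1 (open triangles). Short box C/D members such as Snord49a show the 3 knockout libraries together above wild type, whereas for Snora23 and Snord17 knockout replicate 1 lies above and the other two lie below.

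The box C/D members with the smallest p were above wild type in all 3 knockout libraries, and the 4 of them with a length are shorter than 100 bases. Snord49a stood at 0.540, 0.374 and 0.629 CPM in wild type mice and at 1.98, 2.08 and 1.67 CPM in knockout mice (log2 1.89, SE 0.29, adjusted p = 0.00314, edgeR). Without knockout replicate 1 the value was 1.87. Snord83b stood at 0.600, 0.374 and 0.481 CPM in wild type mice and 1.81, 1.40 and 1.57 CPM in knockout mice (log2 1.7, or 1.6 without knockout replicate 1). SNORD18 stood at 0.660, 0.612 and 0.592 CPM and at 2.46, 1.74 and 1.67 CPM (log2 1.65, or 1.46 without knockout replicate 1). Snord58b rose by 2.26, Snord16a by 2.64 and SNORD5 by 3.38, and for each the groups did not overlap. Their values without knockout replicate 1 were 2.22, 2.24 and 2.92. These 6 box C/D members kept their call in every fit that leaves out 1 library. Their levels are low: Snord58b had 3, 5 and 3 counts in the wild type libraries and 15, 13 and 12 in the knockout libraries. Snord58b thus passed the low-count filter through the knockout libraries alone, so its direction is a description and supports nothing.

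The abundant box C/D members Snord17, Snord118, Snord15a and SNORD94 were highest in knockout replicate 1. The first 3 are longer than 100 bases, and SNORD94 has no length here. Snord17 stood at 257, 152 and 190 CPM in wild type mice and at 483, 131 and 134 CPM in knockout mice, and did not pass (0.32, adjusted p = 0.635, edgeR). Its level of 94.3 CPM per 100 bases was the highest of the matched box C/D members, and without knockout replicate 1 its value was -0.58. Snord118, the U8 snoRNA that acts in processing of the large-subunit precursor, stood at 4.05, 5.78 and 2.59 CPM and at 48.4, 6.82 and 5.75 CPM. It did not pass over 6 libraries (2.29, adjusted p = 0.0625, edgeR) and its value was 0.61 without knockout replicate 1. It passed without knockout replicate 2 (2.73) or 3 (2.74), in DESeq2 (2.31) and without a low-count filter (2.30). Snord15a, a methylation guide of the large-subunit RNA, stood at 2.64, 1.94 and 2.30 CPM and at 60.9, 5.08 and 5.33 CPM. It rose by 3.37 (adjusted p = 0.0325, edgeR), and by 1.19 without knockout replicate 1. Settings in which the call was lost include leaving out any 1 of the wild type replicates (3.27 to 3.51) and limma voom (2.41). SNORD94 stood at 3.27, 0.884 and 1.96 CPM and at 61.1, 8.22 and 9.98 CPM. It rose by 3.69, or by 2.15 without knockout replicate 1, and lost its call without wild type replicate 2 (3.33).

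Of the other abundant box C/D members, Snord104 stood at 3.84, 2.21 and 2.59 CPM in wild type mice and 6.29, 4.32 and 4.44 CPM in knockout mice. It did not pass (0.80, adjusted p = 0.0539, edgeR), and passed in DESeq2 (0.81), in limma voom (0.81), without wild type replicate 1 (1.08) and without haemoglobin, mitochondrial, histone and microRNA genes (0.82). SNORD12 did not pass (1.27, adjusted p = 0.0625, edgeR) and passed in DESeq2 (1.29), in limma voom (1.43) and without wild type replicate 1 (1.93). SNORD101 (-0.26) and SNORD45 (0.21) did not pass.

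The imprinted-cluster members SNORD113 and Snord64 had fewer counts in the knockout libraries, and neither was called over 6 libraries. SNORD113, whose family lies in the imprinted Dlk1-Dio3 region with the host transcript Rian, had 71, 54 and 13 counts in wild type replicates and 15, 16 and 12 in the knockout. The groups overlapped at wild type replicate 3, and the value of -1.19 did not pass (adjusted p = 0.106, edgeR), although it passed without that library (-1.59). Of the neighbouring transcripts, Rian fell by 1.12 and Meg3 by 1.34, both calls lost without knockout replicate 1, and Mirg (-1.03) did not pass. Snord64, of the imprinted Prader-Willi region, had 4, 11 and 3 counts in the wild type libraries, 2, 0 and 1 in the knockout ones, and was too low to test.

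The low filter left out 54 members, 15 of box H/ACA and 39 of box C/D, with at most 61 summed counts. Of these, 34 had more counts in the knockout than in the wild type libraries. The CPM of the groups did not overlap for 19 with knockout above and for 3 with knockout below. Shares over all untested genes are not given here, so these counts are a description and not a result about snoRNAs. SNORD86 and Snord42b had no count in any wild type library, so they met the minimum of 10 counts through the knockout libraries alone. Their direction is therefore a description and supports nothing. SNORD86 had 4, 11 and 8 counts and Snord42b 5, 5 and 3 in the knockout libraries. At the edge of the rule, SNORA50 with 10 summed counts was inside and SNORA69 with 9 was outside. SNORA50 had 2, 2 and 3 counts in the wild type libraries, then 2, 1 and 0 in the knockout ones, and SNORA69 had 2, 2 and 3 and then 1, 1 and 0. SNORA41 and Snord42a had 11 summed counts and Snord88a had 12. Of the 91 symbols below the minimum, 75 had no count in any library.

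Hosts of the matched members were mostly higher too. Of 71 matched members, 68 lie within an annotated gene of the same strand and 3 (Snord104, Snord118 and Snord13) do not. The 51 distinct hosts present in the files were all tested. Of these, 33 rose and 2 fell (Ccar1 by 0.35 and Zbed3 by 0.82), with a median of 0.60, where 22.3% and 22.7% of all tested genes did, and with library totals alone the split was 23 and 5. With knockout replicate 1 left out, 26 rose and 0 fell, against 16.8% and 15.9% of all tested genes. Of the 17 hosts that encode ribosomal proteins, 12 rose, with a median of 0.74. Among the larger rises were those of Rps12 (2.21), Rpl39 (1.69) and Rps13 (1.60), while Rpl4 (0.05) and Rpl17 (0.02) did not pass.

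Guest and host could be set side by side for 37 tested members. The median log2 fold change was 1.55 for the snoRNAs and 0.62 for their hosts, and the guest's value was above the host's in 27 of 37. Without knockout replicate 1 the medians were 1.14 and 0.67, and 23 of 37 guests were above. Of 24 guests called higher, 18 had a host called higher, 6 a host that did not pass, and none a host called lower. In the fit without knockout replicate 1, 18 guests were called higher, of which 11 had a host called higher and 7 a host that did not pass. Snord49a (1.89) rose where 2410006H16Rik stood at 0.09, Snord58b (2.26) where Rpl17 stood at 0.02, and Snord16a (2.64) where Rpl4 stood at 0.05. Snora23 and Snord17 did not pass while their hosts Ipo7 (0.49) and Snx5 (0.72) rose. Guests of 1 host could differ: in Rps12, Snord100 rose by 2.09 and Snora33 by 1.41, the second call lost without knockout replicate 1 (0.75). Across the 37 pairs Pearson's r of the fold changes was 0.41, with all values from the same libraries and some hosts shared. Whether a guest's change differs from its host's was not tested. In 22 of the matched members the snoRNA overlaps an annotated exon of its host, where a read can be lost as ambiguous or counted for either.

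**Figure D5:**
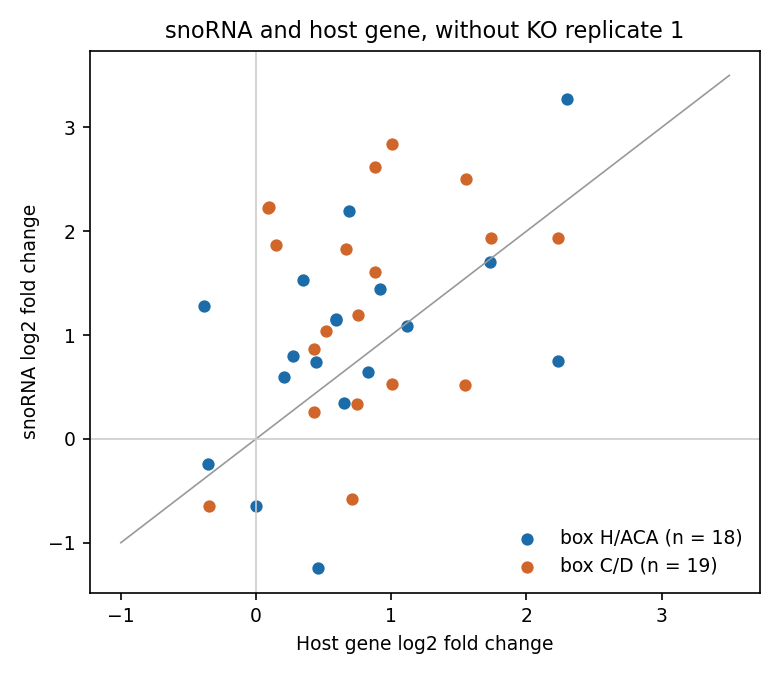
Log2 fold change of each tested snoRNA (vertical) against that of its annotated host gene (horizontal), knockout minus wild type without knockout replicate 1, with the line of equal values. Of 37 pairs, 23 lie above the line.

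Most genes for core proteins of the snoRNA particle rose in knockout skin as RNA, and these calls did not rest on knockout replicate 1. Of the 8 core genes measured, 7 rose with and without that library, where 22.3% and 16.8% of all tested genes rose. For box C/D particles, the methyltransferase fibrillarin (Fbl) rose from 13.3 ± 2.31 to 29.3 ± 4.85 CPM (SD, n = 3; log2 1.14, SE 0.18, adjusted p = 0.00367, edgeR). The scaffold genes Nop56 and Nop58 rose by 0.86 and 0.74, and Nhp2l1, the kink-turn binding protein, by 0.84. For box H/ACA particles, the pseudouridine synthase dyskerin (Dkc1) rose from 39.1 ± 6.93 to 63.9 ± 1.58 CPM (SD, n = 3; log2 0.71). Nhp2 rose by 1.26 and Nop10 by 0.60, whereas Gar1 stood at 0.20 and did not pass (adjusted p = 0.386, edgeR).

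Genes that assemble the particle or make and cut its ribosomal RNA target were mostly higher, against 22.3% of all tested genes. Of 15 assembly and trafficking genes, 8 rose and 1 fell, with a median of 0.55. They included Shq1 (1.43), a chaperone of dyskerin, and the helicase genes Ruvbl2 (1.23) and Ruvbl1 (0.75). Phax, an export adaptor of small nuclear RNAs, fell by 0.56. Of 36 RNA polymerase I and ribosomal RNA processing genes, 26 rose and the other 10 did not pass, with a median of 0.70. Emg1 (1.11), the polymerase subunit gene Polr1d (1.11) and Gnl3 (1.08), itself the host of Snord19 and Snord69, had the smallest p. Taf1d (0.01) and nucleolin (Ncl, -0.36) did not pass. Of 8 enzymes that modify ribosomal RNA without a guide, 5 rose, among them Wbscr22 (0.81), and Emg1 and Nop2 are in both lists. Of 18 genes of snoRNA trimming and decay, 7 rose and 2 fell, with a median of 0.24. The exosome genes Exosc4 (1.07), Exosc5 (0.89) and Exosc3 (0.66) rose. Dbr1 (-0.03), which opens the intron lariat, did not pass. Without knockout replicate 1 the numbers higher were 8, 21, 4 and 5 for these lists, where 16.8% of all tested genes were higher.

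Of 12 non-coding genes tested, 7 rose and 3 fell, and without knockout replicate 1 these were 5 and 1. The list holds snoRNA hosts and also Meg3 and Mirg, neighbours of the host Rian. Over all tested genes 22.3% rose and 22.7% fell, or 16.8% and 15.9% without that library. Snhg7 rose by 1.58, Snhg3 by 1.06 and Snhg1 by 1.17. Snhg11 fell by 1.45 along with Meg3 and Rian. Gas5, an abundant host of box C/D snoRNAs, stood at 121 ± 10.0 CPM in wild type mice and 99.3 ± 11.4 CPM in knockout mice (SD, n = 3) and did not pass (-0.28, adjusted p = 0.0993, edgeR). Among small non-coding RNAs with symbols of other stems, of which 8 were tested, 5 rose. They included Rnu73b (1.45), and whether it is a snoRNA under another symbol was not checked. The Cajal body RNAs Scarna6 (1.62), Scarna2 (1.13) and Scarna9 (2.09) rose too, while Scarna10 (-0.16) and Scarna13 (0.01) did not pass. Without knockout replicate 1, 3 of these 8 rose. All scaRNA symbols together summed to 506, 487 and 546 CPM in wild type mice and 799, 649 and 584 CPM in knockout mice, a smaller excess in knockout replicate 1 than that of the box H/ACA members.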

How the data were processed

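The authors deposited a file of whole-number counts by gene symbol for each mouse. The submitters' processing notes name the build mm9 and HTSeq, STAR, BWA, CASAVA 1.7, R 3.2.3 and limma. Which strand option and annotation they used is not given in the sources used here, so reads of overlapping genes could not be told apart. The counter's 5 summary lines (26.7% to 30.3% of a file) were left out. The labels give separate mice, and replicates differed beyond sampling noise.

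Counts of all genes were fitted by edgeR 4.0.16 under R 4.3.3 (TMM factors from 0.898 to 1.095, default filterByExpr, quasi-likelihood test, Benjamini-Hochberg adjustment over 16691 genes, called under 0.05), after a test on simulated data. A log2 fold change above 0 means higher in the knockout. Alternatives used DESeq2 1.42.0, limma 3.58.1 (voom), other scalings and filters, a replicate block and leaving out each library. Members and lists were chosen with earlier results of these data known. Named members are, per class, up to 6 called with the smallest p in each direction, the 5 highest per length (by CPM without one), imprinted-cluster symbols and those at the count minimum. Pathway lists give core genes and up to 3 with the smallest p. Other names were chosen after values were seen. Low totals limit precision.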

Additional observations from a re-analysis of the deposited data

How the results depend on the processing

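The number of members called higher was 49 to 66 under the other scalings, filters and tools, apart from 40 with the stricter filter (64 tested). It was 37 to 60 when 1 library was left out, and 27 for symbols in mouse case alone, a smaller set chosen after seeing the data. The number lower was 0 to 4 when 1 library was left out, and 1 without a low-count filter, a box H/ACA symbol. Box H/ACA members called higher numbered 18 to 36 and lower 0 to 4, and box C/D members 19 to 24 and 0 to 1, when 1 library was left out. With the stricter filter 10 box C/D members were called higher, as fewer were tested. The median log2 fold change was 0.93 to 1.84 for box H/ACA and 1.27 to 1.60 for box C/D members without 1 library, and 1.19 for box C/D members with library totals alone, which shifted the median of all genes by -0.15. Host genes called lower numbered 5 with library totals alone, 5 with upper-quartile factors, 1 without a filter, 1 with the replicate block and 0 to 4 without 1 library, and the cause was not tested. Snora23 turned from 0.13 to -1.25 without knockout replicate 1, in a range of -1.25 to 0.56 without 1 library. With the replicate number as a block 51 members were higher and 0 lower, and among named members Snord15a lost its call (2.40) and Snord104 passed (0.82). Deviations of same-numbered libraries correlated at 0.01, -0.21 and 0.19, within the -0.29 to 0.26 of unlike-numbered ones. With so few libraries this check cannot tell whether the numbers pair the mice. All settings named here kept 7 of 8 core particle genes higher except library totals alone, with 6. Depth limits the 54 untested members, which have at most 61 summed counts.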
